A study of Mus musculus with 24 samples.

Results

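The effect of a TGF-β1 transgene in the lungs of fibrosis-prone mice was read from 12 of the 24 arrays of the series, chosen by the strain and genotype in their labels. They held 8 samples from transgenic mice (TG) and 4 from wild-type mice (WT) of the inbred strains A/J, AKR/J and C57BL6/J. A/J and AKR/J gave 3 TG samples and 1 WT sample each, and C57BL6/J gave 2 TG and 2 WT samples. Every mouse, WT included, received doxycycline in its water for 2 weeks to induce the transgene, and total RNA of the right lung lobe was hybridised. The remaining 12 arrays came from 129, Balb/cJ and C3H, with 3 TG samples and 1 WT sample each, which the series design lists as resistant. A fibrosis field in the labels assigns the words prone and resistant in reverse, and the series design was followed. The sources used here do not state the promoter and cell type that drive the transgene, or the ages of the mice. Tgfb1 itself was not analysed here, so the genotype labels could not be checked on the induced gene. Samples are numbered within a group without a statement that each is a separate animal, so p-values measure the spread between these samples.

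TGF-β1 is secreted in a latent complex bound to matrix proteins and is released by integrins and proteases. The free ligand binds paired receptors on the cell surface, and receptor-activated Smad proteins then carry the signal to genes for matrix, protease inhibitors and feedback regulators. In the lung it is known for driving collagen deposition by fibroblasts, for restraining epithelial growth and for its part in fibrosis.

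Values are log2 intensities, so a difference of 1 is a doubling, and all levels below are on this scale. Of 13499 genes tested with limma with strain as a fixed effect, 2294 (17.0%) differed between TG and WT at a Benjamini-Hochberg adjusted p under 0.05. TG was higher in 1188 (8.80%) and lower in 1106 (8.19%), with 66 and 39 of these at least 2-fold apart. The table used here held 76.1% to 91.7% of the RefSeq protein-coding genes of chromosomes 1 to 4 and 10 to 19, 26.3% of those of chromosome 5, at most 1.97% of those of 6 to 9 and X and 0 of Y. The counts are therefore not genome-wide, and 618 of the 913 genes on the lists were measured. Each list count below is to be read beside the shares of 8.80% higher and 8.19% lower over all genes. The median change over all genes was 0.001 and the median residual SD 0.111. Every TG sample lay above every WT sample of its own strain in all 3 strains for 1230 genes (9.11%), and below for 1084 (8.03%). Leaving out the only A/J WT sample, which takes A/J out of the estimate, gave 1270 genes. Pairs of samples within a group had correlations of 0.9916 to 0.9972 over genes. Sftpc, the surfactant protein of alveolar type 2 cells, stood at 14.21 to 14.46 in TG and 14.28 to 14.43 in WT samples, near the top of the range of 3.41 to 14.75. On the first principal component (37.3% of variance) A/J and C57BL6/J TG samples lay at -20.38 to -14.25, AKR/J TG samples at 2.11 to 8.91 and the WT samples at 13.6 to 20.66.

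The strongest rises were in Fabp7, Igf1, Ltbp2, Tnfsf18 and Tnc, each at least 3-fold higher in TG lungs, and the strongest falls in Acoxl and Igfbp3, each over 4-fold lower. Named here are, in each direction, the 15 called genes of greatest change whose TG samples lay beyond the WT samples in each of the 3 strains. Fabp7, a fatty acid binding protein, measured 9.93, 9.01 and 10.49 in A/J TG, 10.51, 10.46 and 9.81 in AKR/J TG and 9.70 and 8.98 in C57BL6/J TG samples. Its WT samples measured 7.42 in A/J, 6.66 in AKR/J and 6.95 and 6.83 in C57BL6/J. All 8 TG samples lay above all 4 WT samples, and the change was 2.78 ± 0.28 (SE, 8 TG and 4 WT samples, 6.85-fold, limma adjusted p = 5.5e-05). Igf1, a growth factor for fibroblasts and epithelium, measured 11.25, 10.56 and 11.25 in A/J TG, 9.67, 9.87 and 9.57 in AKR/J TG and 11.85 and 11.44 in C57BL6/J TG samples. The WT samples measured 8.63 in A/J, 8.20 in AKR/J and 9.74 and 9.69 in C57BL6/J. AKR/J TG and C57BL6/J WT levels overlapped across strains, while within each strain TG was higher, by 1.94 ± 0.16 (3.84-fold, adjusted p = 1.1e-05). Igfbp3, a binding protein of IGF1, moved the other way. It measured 8.34 to 8.96 in A/J TG, 8.65 to 9.20 in AKR/J TG and 8.43 and 8.60 in C57BL6/J TG samples, against 11.19, 10.41, 10.73 and 10.80 in the A/J, AKR/J and both C57BL6/J WT samples. The groups did not overlap and the fall was -2.14 ± 0.17 (4.41-fold lower, adjusted p = 9.5e-06).

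**Figure D1:**
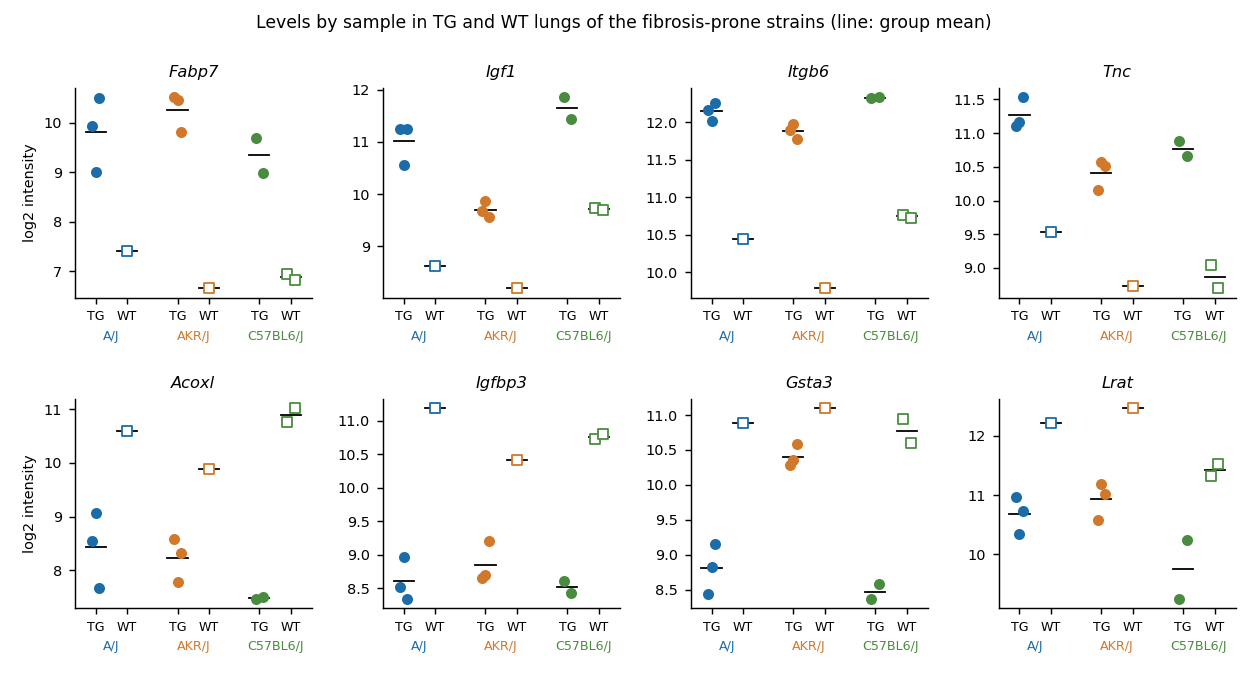
Log2 intensity of 8 named genes (vertical axes, each panel on its own range) in every TG sample (filled circles) and WT sample (open squares) of A/J, AKR/J and C57BL6/J, with lines at group means. In all 8 panels the TG samples lie on one side of the WT samples of their strain, as the rule that named these genes requires. They lie above them for Fabp7, Igf1, Itgb6 and Tnc and below them for Acoxl, Igfbp3, Gsta3 and Lrat.

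Most genes on the list of latent TGF-β release and activation were higher. Of 14 measured genes of ligand release and activation, 12 were higher and 0 lower, with a median change of 0.74. Itgb6, the integrin chain that frees latent TGF-β1 on epithelium, had the smallest p-value among all genes named. It measured 12.16, 12.02 and 12.26 in A/J TG, 11.89, 11.98 and 11.77 in AKR/J TG and 12.32 and 12.33 in C57BL6/J TG samples. Its WT levels were 10.45 in A/J, 9.79 in AKR/J and 10.77 and 10.72 in C57BL6/J. No TG sample reached down to a WT sample, and the rise was 1.77 ± 0.08 (3.41-fold, adjusted p = 6.7e-07). Ltbp2, a matrix protein of the latent TGF-β binding family, ranged from 10.73 to 12.57 with a median of 11.84 in TG, against 10.10, 9.84, 10.12 and 9.72 in A/J, AKR/J and both C57BL6/J WT samples. Its rise was 1.91 ± 0.19 (3.75-fold, adjusted p = 5.5e-05). Ltbp3, of the same family, rose by 1.01, the membrane protease Mmp14 by 1.17 and the ligand gene Tgfb2 by 0.79. Ltbp1 and Nrros, both of which tether latent TGF-β, did not pass (changes of 0.09 and -0.06).

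Below the ligand the picture was mixed. Of 10 measured receptors and Smads, 2 were higher (Tgfbr1, the signalling type I receptor, by 0.39, and Acvr1, by 0.33) and 4 lower, led by the endothelial co-receptor Eng and receptor Acvrl1 (-0.51 and -0.48). Without the A/J WT sample, 1 was higher and 2 lower. Of 11 feedback inhibitors, 4 were higher and 2 lower. Pmepa1, which binds receptor Smads and dampens the signal, had 11.82 to 12.66 in TG samples and 10.96, 10.85, 11.37 and 11.19 in A/J, AKR/J and both C57BL6/J WT samples. The groups did not overlap, and Pmepa1 rose by 1.29 ± 0.09 (adjusted p = 5.2e-06). Smad7, the inhibitory Smad, did not pass (-0.25, adjusted p = 0.13). Among 15 classical target genes, 4 were higher, among them Ccn2, a matricellular growth factor partner (0.86), and Fn1, fibronectin (0.85). Zeb1, a repressor of epithelial genes, was the 1 lower gene (-0.36). Acta2, the actin of smooth muscle and myofibroblasts, measured 12.01 to 12.65 in TG and 12.44 to 12.69 in WT samples, with a change of -0.13 ± 0.10 (adjusted p = 0.44). Of 12 BMP pathway genes, Fstl1 (1.19) and Fstl3 (0.58) were higher, and Bmp6 (-1.05), Bmp7 (-0.41) and Bmpr2 (-0.30) lower. Without the A/J WT sample, 1 BMP gene was lower. Of 11 genes of the IGF axis, Igf1 and Igf2r were higher and Igfbp3 and Igfbp6 lower.

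Structural matrix genes were higher in most classes. Of 17 collagens, 12 were higher and 0 lower (median 0.39). Col1a1, a chain of type I collagen, measured 12.19, 11.80 and 11.98 in A/J TG, 11.16, 11.39 and 11.09 in AKR/J TG and 12.24 and 11.92 in C57BL6/J TG samples. Its WT samples measured 10.62 in A/J, 10.04 in AKR/J and 10.94 and 10.79 in C57BL6/J. TG and WT did not overlap, and Col1a1 rose by 1.25 ± 0.09 (adjusted p = 8e-06). Col3a1, of type III collagen, rose by 1.04 and Col5a2 by 0.96. Lox, the enzyme that crosslinks collagen and elastin, ranged from 11.05 to 12.12 with a median of 11.53 in TG and from 10.09 to 10.36 in WT samples, and rose by 1.46 ± 0.16 (2.74-fold, adjusted p = 0.0001). Of 9 collagen processing genes 5 were higher and 1 lower (0 without the A/J WT sample), and P4ha1 and P4ha2, which hydroxylate proline in collagen, did not pass (-0.12 and 0.01).

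Of 17 matricellular and elastic fibre genes, 12 were higher and 0 lower (median 0.51). Tnc, the injury matrix protein tenascin C, measured 11.11, 11.16 and 11.53 in A/J TG, 10.15, 10.57 and 10.51 in AKR/J TG and 10.88 and 10.66 in C57BL6/J TG samples. Its WT levels were 9.53 in A/J, 8.74 in AKR/J and 9.04 and 8.70 in C57BL6/J. The groups did not overlap, and the rise was 1.78 ± 0.11 (3.44-fold, adjusted p = 2.9e-06) with 1.74, 1.67 and 1.90 in A/J, AKR/J and C57BL6/J. Postn, the matrix protein periostin, did not pass (0.20). Of 13 proteoglycan genes 6 were higher, led by Vcan, versican (1.26), and 2 lower, Ogn, osteoglycin (-0.87), and Omd (-0.33). Ogn passed in all 27 alternatives, and only 1 gene of the list was lower without A/J WT 1, A/J TG 2, AKR/J TG 1, C57BL6/J WT 2 or C57BL6/J TG 1. Of 11 laminins and nidogens 9 were higher, led by Lama1 (1.25), the embryonic laminin chain, and Lamb3 (1.22), and 1, Lama4, was lower (-0.16). Over single samples left out, 0 to 2 were lower. Of 14 matrix proteases and inhibitors 8 were higher and 3 lower, and 5 were higher without the A/J WT sample. Ctsk, the collagen-degrading cathepsin K, measured 11.36, 11.62 and 10.58 in A/J TG, 9.24, 9.73 and 9.08 in AKR/J TG and 10.33 and 9.84 in C57BL6/J TG samples. Its WT levels were 9.21, 8.26, 8.95 and 8.56 in A/J, AKR/J and both C57BL6/J samples, so AKR/J TG overlapped A/J WT, and within strains Ctsk rose by 1.45 ± 0.21 (2.74-fold, adjusted p = 0.00065). Mmp9, a gelatinase, was lower (-0.65).

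Promoter windows of the named genes were searched for Smad and AP-1 letters, as TGF-β signalling reaches genes through Smad proteins. These were RefSeq windows around an annotated start (GRCm38.p6, read on the gene's strand). The search covered 14 of the 15 named risers (17 windows) and 12 of the 15 named fallers (12 windows). Lox among the risers and Gria1, Nrn1 and Faim2 among the fallers were left out of the search. The letters CAGACA, the core of a Smad-binding box, were searched in either orientation. They stood in 5 of 17 riser windows (29.4%, 4 genes), 2 of 12 faller windows (16.7%) and 2317 of the 12875 windows of 10420 measured genes. Of the 5 riser windows, 2 are overlapping Tnc windows that share 1 TGTCTG, so the riser share counts that site more than once. By gene, 4 of 14 risers and 2 of 12 fallers had a match, and enrichment was not tested. The letters TGANTCA, an AP-1 site, stood in 1 of 17 riser windows (5.88%), 2 of 12 faller windows (16.7%) and 6.74% of all windows. The motifs do not overlap in letters, and a match is a description of the window alone. These 4 windows carry CAGACA or its reverse complement TGTCTG, in capitals, in 3 risers and 1 faller. Tnc lies on chromosome 4 (chr4:64046887-64047186, minus strand), Lrg1 on 17 (chr17:56121897-56122196, minus strand), Ctsk on 3 (chr3:95498960-95499259, plus strand) and Gsta3 on 1 (chr1:21240335-21240634, plus strand).
Tnc: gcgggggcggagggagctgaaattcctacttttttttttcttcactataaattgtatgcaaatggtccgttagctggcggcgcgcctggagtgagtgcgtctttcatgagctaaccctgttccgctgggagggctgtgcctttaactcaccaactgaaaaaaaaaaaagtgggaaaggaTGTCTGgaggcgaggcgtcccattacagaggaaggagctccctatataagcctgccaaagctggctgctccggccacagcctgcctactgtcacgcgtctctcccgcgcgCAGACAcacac
Lrg1: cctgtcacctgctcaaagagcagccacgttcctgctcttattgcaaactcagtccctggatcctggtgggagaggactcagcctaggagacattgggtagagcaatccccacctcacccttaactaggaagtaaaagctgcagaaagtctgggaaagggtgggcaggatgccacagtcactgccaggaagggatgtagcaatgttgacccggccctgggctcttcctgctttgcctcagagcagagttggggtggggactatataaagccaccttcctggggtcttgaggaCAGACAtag
Ctsk: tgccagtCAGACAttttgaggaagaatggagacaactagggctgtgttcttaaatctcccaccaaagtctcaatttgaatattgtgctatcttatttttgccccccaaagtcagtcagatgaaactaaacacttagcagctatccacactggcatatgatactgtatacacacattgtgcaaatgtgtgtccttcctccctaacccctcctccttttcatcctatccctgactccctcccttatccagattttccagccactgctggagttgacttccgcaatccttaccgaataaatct
Gsta3: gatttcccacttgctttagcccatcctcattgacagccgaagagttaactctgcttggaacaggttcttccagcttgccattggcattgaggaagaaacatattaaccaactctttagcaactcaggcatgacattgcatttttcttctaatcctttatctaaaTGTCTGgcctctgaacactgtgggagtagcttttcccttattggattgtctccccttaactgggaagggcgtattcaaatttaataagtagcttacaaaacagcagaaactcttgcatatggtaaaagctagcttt

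The other named risers spanned several functions. Lrg1, a glycoprotein that modifies TGF-β signalling in endothelium, ranged from 11.41 to 12.74 with a median of 12.25 in TG, against 10.47, 10.48, 11.09 and 10.97 in A/J, AKR/J and both C57BL6/J WT samples, and rose by 1.49 ± 0.14 (2.81-fold, adjusted p = 3.2e-05). Itih4, an acute phase matrix stabiliser, ranged from 11.75 to 12.21 in TG and 10.17 to 10.91 in WT, and rose by 1.53 ± 0.09 (adjusted p = 2.9e-06). Tnfsf18, a T cell costimulatory ligand, rose by 1.87 and Tgm1, the transglutaminase of squamous cells, by 1.44. Itgbl1, an integrin-like secreted protein, rose by 1.65, Nrcam, a neuronal adhesion molecule, by 1.52, and Kdelr3, a receptor that returns chaperones to the endoplasmic reticulum, by 1.5. Pkhd1, the fibrocystin of primary cilia, rose by 1.77 ± 0.23. Kdelr3 and Ctsk missed the threshold in 1 of 27 alternatives, the fit with no strain term (adjusted p = 0.087 and 0.055).

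Of the 15 named fallers, 5 were enzymes: Acoxl, Lrat, Gsta3, Cyp4b1 and Aox3. Acoxl, an acyl-CoA oxidase-like enzyme, measured 8.55, 9.07 and 7.67 in A/J TG, 8.58, 7.79 and 8.32 in AKR/J TG and 7.47 and 7.50 in C57BL6/J TG samples. Its WT levels were 10.59 in A/J, 9.88 in AKR/J and 10.76 and 11.02 in C57BL6/J. TG lay below WT throughout, and the fall was -2.50 ± 0.30 (5.66-fold lower, adjusted p = 0.00019). Lrat, which stores retinol as esters, measured 10.97, 10.34 and 10.74 in A/J TG, 10.58, 11.19 and 11.02 in AKR/J TG and 9.25 and 10.25 in C57BL6/J TG samples. Its WT levels were 12.21 in A/J, 12.47 in AKR/J and 11.32 and 11.52 in C57BL6/J, and the fall was -1.59 ± 0.18 (adjusted p = 0.00011) with no overlap. Gsta3, a glutathione transferase, measured 8.44, 8.83 and 9.15 in A/J TG, 10.28, 10.36 and 10.58 in AKR/J TG and 8.37 and 8.58 in C57BL6/J TG samples, against 10.88, 11.10, 10.94 and 10.60 in the 4 WT samples of A/J, AKR/J and C57BL6/J. Its probes may also read other Gsta genes, and it fell by 1.75 on the log2 scale (3.36-fold lower, adjusted p = 0.00036).

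Cyp4b1, a lung cytochrome P450, fell by 1.59 and Aox3, an aldehyde oxidase, by 1.32. Of 7 cytochrome P450 and flavin monooxygenases 4 were lower (median -0.67), among them Fmo2 (-0.85) and Fmo1 (-0.84). Of 14 aldehyde, alcohol and carbonyl genes 8 were lower and Adh1 higher (0.44), and Adh1 did not pass without the A/J WT sample. Aldh1a7 fell by nearly the same amount in the 3 strains (-1.08, -1.06 and -1.07). Of 15 glutathione transferases and Nrf2 targets 6 were lower and 0 higher, and of 10 retinoid genes 4 were lower, with Rarb (-0.83) and Rbp4 (-0.74) beside Lrat. Of 20 fatty acid genes 2 were higher, Fabp7 and Fasn, and 5 lower (median -0.02), beside 8.80% and 8.19% of all genes. The remaining named fallers were Kcnj13, a potassium channel (-1.52), Gabrp, a GABA receptor subunit (-1.42), Gria1, a glutamate receptor subunit (-1.41), Nrn1, neuritin (-1.41), Lrrc26 (-1.28), Faim2 (-1.27) and 1810010H24Rik (-1.82).

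Airway secretory genes were lower. Of 12 club and goblet cell markers 7 were lower and 0 higher (median -0.53), and the mean level of the list was 9.99 to 10.44 in TG and 10.65 to 11.22 in WT samples. In bulk tissue, fewer cells of a type and less RNA per cell cannot be told apart. Pigr, which carries IgA across epithelium, measured 7.95, 8.21 and 8.06 in A/J TG, 7.80, 7.92 and 7.81 in AKR/J TG and 8.46 and 8.30 in C57BL6/J TG samples, against 10.25, 9.09, 9.35 and 9.62 in A/J, AKR/J and both C57BL6/J WT samples. The groups did not overlap, and Pigr fell by 1.47 (2.77-fold lower, adjusted p = 5.5e-05). Scgb3a2, a secretoglobin, fell by 1.00 and Scgb1a1, the main club cell secretoglobin, by 0.32. Of 16 ciliated cell markers 8 were lower and 0 higher (median -0.37), with medians of -0.61, -0.08 and -0.43 in A/J, AKR/J and C57BL6/J. The count was 3 without the A/J WT sample and 13 without the AKR/J WT sample. Foxj1, the master regulator of motile cilia, did not pass (-0.24).

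In the alveolus, 0 of 11 type 1 markers passed at an adjusted p under 0.05, and 5 were lower without the AKR/J WT sample. Ager, the defining type 1 marker, changed by -0.16 ± 0.10. Of 14 type 2 markers Hc (0.83), the complement component C5, and Fasn (0.43), fatty acid synthase, were higher and 0 lower, and Sftpc changed by -0.04 ± 0.05. Without the A/J WT sample 1 was higher, and without C57BL6/J TG 1, 4 were, while 1 was lower without A/J TG 2. Of 10 markers of transitional and injured epithelium 6 were higher and 0 lower (median 0.48), led by Itgb6, Sfn, a checkpoint protein (1.34), and the keratins Krt8 (0.81) and Krt18 (0.69). Scel, a protein of squamous and type 1 cells, fell by 1.58, opposite to Tgm1, a gene of the same list of basal and squamous markers.

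Endothelial genes were lower, with 12 of 16 markers lower and 0 higher (median -0.36). Clec14a, an endothelial adhesion receptor, fell by 0.87, Tek, the angiopoietin receptor, by 0.64, and Pecam1 by 0.31. The list averaged 10.89 to 11.38 in TG and 11.40 to 11.61 in WT samples. Of 10 capillary markers 7 were lower, with Ednrb, an endothelin receptor of aerocytes, at -1.06. Fibroblast markers moved little, with 1 of 13 higher (Cd34, 0.54) and 2 lower, Tcf21, a lipofibroblast transcription factor (-0.93), and Limch1 (-0.27). Of 11 smooth muscle and pericyte markers Rgs5, a pericyte regulator of G proteins, was higher and 3 were lower, among them Myh11 (-0.48), the smooth muscle myosin. Rgs5 changed by 0.33 in A/J, 0.30 in AKR/J and 2.07 in C57BL6/J (F-test adjusted p = 0.041). Its change of 1.02 in the main fit did not pass without any 1 of the 4 C57BL6/J samples. The smooth muscle count of higher genes was then 0, and it was 2 without A/J TG 2 or the AKR/J WT sample. The fibroblast count of higher genes was 2 without the AKR/J WT sample. Without single samples the fibroblast count of lower genes ranged from 1 to 4 and that of smooth muscle from 1 to 4.

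Heart muscle genes, which mark the heart and the muscle sleeves of pulmonary veins, were lower in 9 of 10 (median -0.91). Their mean level was 8.89 to 9.75 in TG and 9.83 to 10.23 in WT samples, with medians of -1.31, -0.19 and -1.01 in A/J, AKR/J and C57BL6/J. Myh6, the atrial myosin, measured 8.84 to 9.12 in A/J TG, 9.87 to 10.02 in AKR/J TG and 8.69 and 8.75 in C57BL6/J TG samples, against 10.58, 10.16, 9.92 and 9.78 in the A/J, AKR/J and both C57BL6/J WT samples. Skeletal muscle had 1 of 5 genes lower, adipose tissue 2 of 6 and thymus 2 of 8, while 0 of 8 oesophageal, thyroid and mesothelial genes passed. Single samples left out gave 0 or 1 lower in skeletal muscle and 1 to 4 in adipose tissue. Of the oesophageal, thyroid and mesothelial genes, 2 were lower without the AKR/J WT sample and 1 without AKR/J TG 1 or TG 3. The part of these tissues in the endothelial, smooth muscle and lymphocyte counts was not tested.

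Immune genes moved in both directions. Of 10 monocyte and interstitial macrophage markers 6 were higher and Pf4 lower (median 0.75). C1qa, the complement recognition chain made by tissue macrophages, rose by 0.82, with 10.23 to 10.54 in A/J TG, 8.81 to 8.97 in AKR/J TG and 9.91 and 10.16 in C57BL6/J TG samples, against 9.02, 8.68, 9.09 and 9.18 in A/J, AKR/J and both C57BL6/J WT samples. Of 10 dendritic cell and MHC class II genes 7 were higher and 0 lower (median 0.43). Of 7 T and NK cell genes 6 were lower and 0 higher (median -0.65), with Gzma, a granzyme, at -0.95 and Il7r at -0.53. The T and NK list held 7 measured of 20 genes, and 1 was higher without the AKR/J WT sample or AKR/J TG 3. The monocyte count of lower genes was 2 without A/J TG 3 or AKR/J TG 1. Among 6 alveolar macrophage markers 0 passed, but 1 was lower without A/J TG 2 or the AKR/J WT sample, and among 11 B and plasma cell genes 1 was higher and 1 lower, with 0 or 1 higher and 1 to 5 lower over single samples left out. Of 9 neutrophil markers Lcn2 (1.14) and Trem1 (0.52) were higher and 2 lower, Mmp9 among them, and single samples left out gave 1 or 2 higher and 1 to 4 lower.

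Of 27 chemokines and cytokines 8 were higher, including Il6 (0.93) and Il1b (0.78), and 2 lower. The count of higher genes was 1 without the A/J WT sample, 5 without C57BL6/J WT 2 and 4 without C57BL6/J TG 1. The count of lower genes was 0 without the A/J WT sample or C57BL6/J WT 2, and 1 without the AKR/J WT sample or C57BL6/J TG 2. Of 16 JAK-STAT and acute phase genes 9 were higher and 2, the receptors Il6ra (-0.76) and Lifr (-0.59), lower. Socs3, the feedback inhibitor of IL-6 family signalling, ranged from 9.20 to 10.61 in TG and 8.85 to 8.88 in WT samples, with no overlap, and rose by 1.13. Of 10 clock genes 5 were lower, including Nr1d1 (-0.54), and 3 without the A/J WT sample.

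Of 17 mitosis genes 15 were higher and 0 lower (median 0.79), with medians of 1.33, 0.43 and 0.53 in A/J, AKR/J and C57BL6/J. Ccna2, the cyclin of S phase and mitotic entry, measured 10.52, 9.58 and 10.29 in A/J TG, 8.45, 8.20 and 7.97 in AKR/J TG and 9.43 and 9.05 in C57BL6/J TG samples. Its WT levels were 8.06, 7.08, 8.48 and 8.45 in A/J, AKR/J and both C57BL6/J samples, and within strains Ccna2 rose by 1.27 ± 0.22 (adjusted p = 0.0019). Levels of AKR/J TG overlapped those of WT samples of the other strains. Of 12 DNA replication genes 8 were higher, but 1 without the A/J WT sample.

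**Figure D2:**
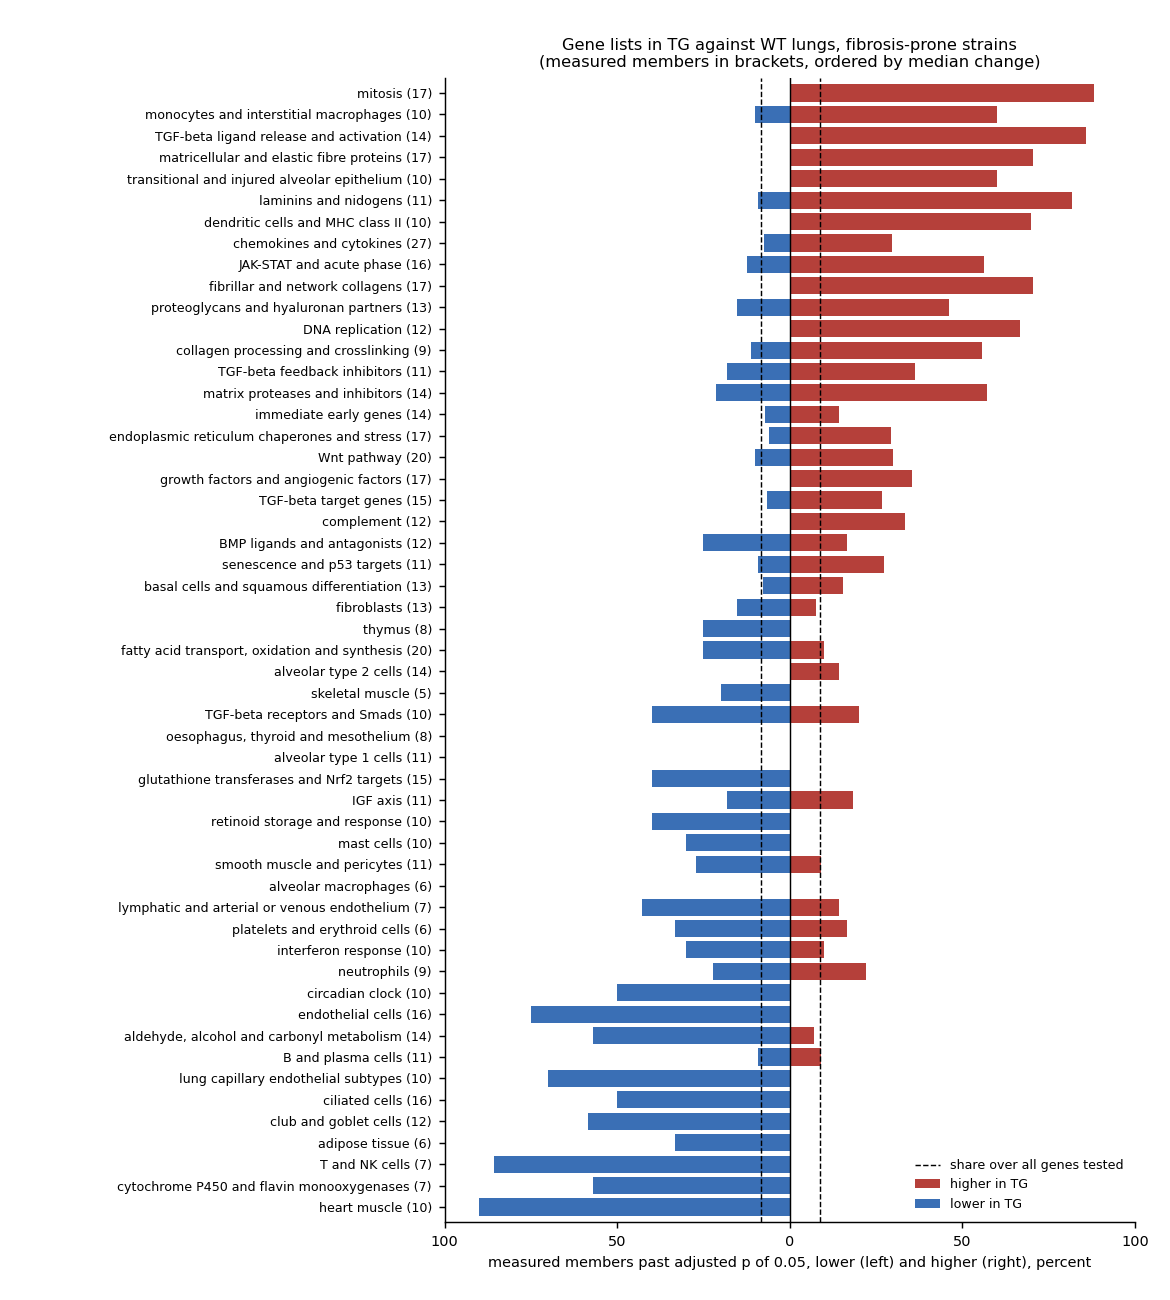
Share of the measured members of each gene list (horizontal axis, percent) that were higher (red, right) or lower (blue, left) in TG than WT lungs at an adjusted p under 0.05, ordered by median change. Dashed lines mark the shares over all genes, 8.80% higher and 8.19% lower, and mitosis (15 of 17) and heart muscle (9 of 10) stand at the ends.

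Counts of genes past the threshold differed between the strains, which is not in itself a test of a difference in effect. Tested alone in the fit of 6 group means, 1590 genes (11.8%) passed in A/J, 179 (1.33%) in AKR/J and 1494 (11.1%) in C57BL6/J, and 108 of the 110 that passed in all 3 went the same way in each. With 1 WT sample in A/J and AKR/J these counts rest on the spread of the other groups. In these strains a strain's own effect and an unusual WT sample cannot be told apart. The C57BL6/J count was 564 to 821 without any of its own 4 samples, and the AKR/J count 80 without AKR/J TG 1, 86 without TG 2 and 282 without A/J TG 3. Of the 2294 called genes, AKR/J had the smallest change along the called direction in 1525 (66.5%) and A/J the largest in 1172 (51.1%), with median changes of 0.472, 0.240 and 0.413 in A/J, AKR/J and C57BL6/J. As these genes were called from the 3 strains together, that order is a description. Npr3, the natriuretic peptide clearance receptor, fell by 1.30 in AKR/J, where Igfbp3, Esm1 and Npr3 had the 3 largest falls among the genes that passed in that strain alone. Ppbp, a platelet chemokine, changed by -2.16, -0.08 and -1.34 in A/J, AKR/J and C57BL6/J.

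**Figure D3:**
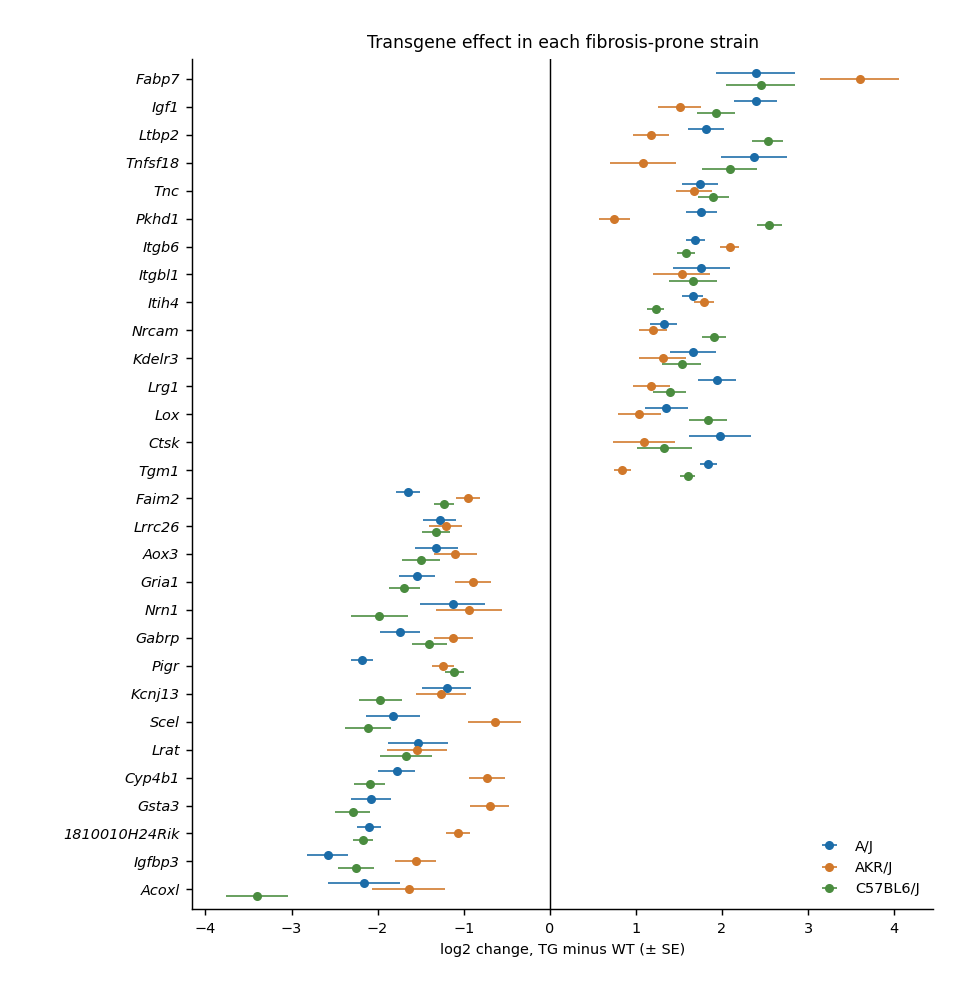
Change in log2 intensity, TG minus WT (horizontal axis, ± SE from the fit of 6 group means), of the 15 named higher and 15 named lower genes in A/J (blue), AKR/J (orange) and C57BL6/J (green). Every value keeps the sign of its gene, as the rule that named these genes requires. AKR/J lies nearest 0 of the strains for most of these genes, Pkhd1, Tgm1, Gsta3, Cyp4b1 and Scel among them. It lies farthest from 0 for Fabp7, Itgb6 and Itih4.

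A limma F-test of the difference among the strains' effects passed in 69 genes (0.511%), and 1812 had an unadjusted p under 0.05. Of the 69, AKR/J had the smallest change in size in 49 and ran against the sign of the other strains in 36. The count ranged from 18 to 280 over single samples left out, lowest without C57BL6/J TG 1 and highest without A/J TG 3, so it rests on single samples. The lowest adjusted p was that of Colq, the collagenous tail of acetylcholinesterase, with 7.38, 7.54 and 7.51 in A/J TG, 9.22, 9.31 and 9.41 in AKR/J TG and 7.41 and 7.46 in C57BL6/J TG samples. Colq WT levels were 9.09 in A/J, 8.75 in AKR/J and 8.95 and 8.90 in C57BL6/J, so the effects were -1.61, 0.56 and -1.49 (F-test adjusted p = 0.00022). Ms4a7, a macrophage membrane protein, changed by 1.57, 0.30 and 1.59 (adjusted p = 0.0078). Cytl1, a cytokine-like protein of cartilage, changed by -1.54, 0.38 and -1.57 and Rasgrf2, a Ras exchange factor, by -0.83, 0.31 and -0.92. Ttn, the muscle protein titin, changed by -1.5, -0.11 and -0.90, and 4 of the 10 heart muscle genes also passed. For Slc4a1, the red cell anion exchanger, the A/J WT sample stood at 8.97, against 7.15 to 7.37 in the WT samples of AKR/J and C57BL6/J. For the small RNA gene Scarna13 it stood at 10.80, against 9.03 to 9.18 in those samples, while the 129 WT sample stood at 11.25. Snord47 and Ttn missed the threshold in the fit of 24 arrays (adjusted p = 0.064 and 0.12), with ranges over alternatives of 0.00014 to 0.064 and 0.0031 to 0.12.

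**Figure D4:**
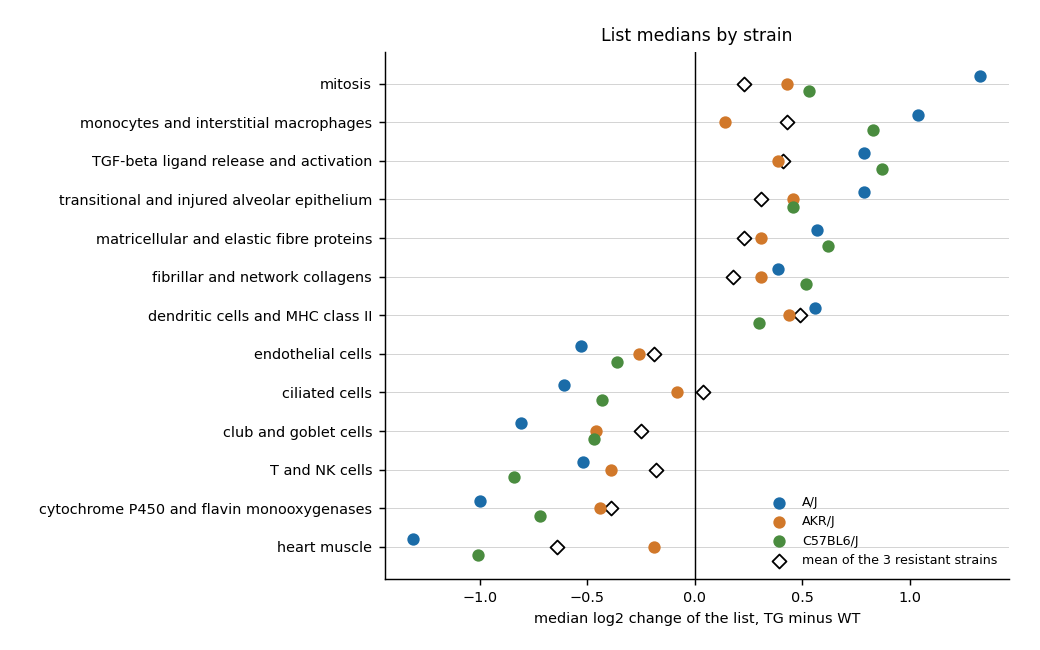
Median log2 change of 13 gene lists, TG minus WT (horizontal axis), in A/J, AKR/J and C57BL6/J (filled circles) and as the mean effect of the 3 resistant strains (open diamonds). Mitosis has its highest median in A/J (1.33), and heart muscle lies at -1.31 and -1.01 in A/J and C57BL6/J and at -0.19 in AKR/J.

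The prone effect was set against that of 129, Balb/cJ and C3H in a fit of all 24 arrays, where 1444 genes (10.7%) passed in the resistant strains. The difference of the effects, prone minus resistant, passed in 64 genes (0.474%), 34 above 0 (0.252%) and 30 below (0.222%). Of the 64, 32 moved the same way in both sets and more in the prone strains, 3 the same way and less, and 29 in opposite directions. Racgap1, a regulator of cell division, changed by 0.86 in prone and 0.00 in resistant strains, a difference of 0.85 ± 0.14 (adjusted p = 0.018). Knstrn, a spindle protein, differed by 0.87 (0.91 and 0.04) and Ncapg2, a condensin subunit, by 0.73 (0.66 and -0.07). Bub1b, a spindle checkpoint kinase, was the other of 17 mitosis genes to pass. Htr2b, a serotonin receptor of lung fibroblasts, differed by 0.87 (0.39 and -0.48), Nrcam by 0.83 and Lama1 by 0.79. The prone strains were uneven in these genes. In A/J, AKR/J and C57BL6/J the effects were 0.17, 0.14 and 0.86 for Htr2b and 1.57, 0.13 and 1.85 for Lama1. Those of Nrcam were 1.32, 1.20 and 1.91.

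Below 0 stood Bpifb1, a secreted airway defence protein (-1.66, with -0.32 in prone and 1.35 in resistant strains), Lrat (-1.39, with -1.58 and -0.19), 1810010H24Rik (-1.09, with -1.78 and -0.69) and Gsta3 (-1.03, with -1.69 and -0.65). Nlrp1a, an inflammasome sensor, and the MHC class I gene H2-Q5 differed by -0.95 and -0.83, and probes for both may read neighbouring copies. Nlrp1a changed by -1.67, -0.92 and 0.02 in A/J, AKR/J and C57BL6/J. Its WT samples stood at 7.47 in A/J and 7.23 in AKR/J, against 5.45 and 5.66 in C57BL6/J and 4.92 to 5.23 in resistant strains. Of these 12 genes 1810010H24Rik, Htr2b, Knstrn and Racgap1 stayed past the threshold in all 25 alternatives, with the highest adjusted p at 0.022, 0.046, 0.046 and 0.046. The other 8 each missed it in some. Lrat missed it in 15, Nrcam in 14, Bpifb1 in 13, Lama1 in 11, Gsta3 in 8 and H2-Q5 in 2 of 25, and Ncapg2 in 12 and Nlrp1a in 8 of 24. None of these alternatives left out the only WT sample of a strain, as that strain's effect could not then be fitted. The count of 64 ranged from 8 without Balb/cJ TG 1 to 194 without A/J TG 3. None of 17 collagens passed this test, though 16 had a larger change in the prone strains (median 0.37 in prone and 0.18 in resistant strains). Of 16 ciliated cell markers 0 passed, with medians of -0.37 in prone and 0.04 in resistant strains. Genes of motile cilia outside that list did pass, named here after their values were seen. Iqcg and Drc3, of the axoneme's dynein regulatory complex, differed by -0.64 and -0.61, Enkur, an axonemal protein, by -0.64, and Ak7, an adenylate kinase of cilia, by -0.59. Their changes were -0.46, -0.54, -0.55 and -0.56 in prone strains and 0.18, 0.07, 0.08 and 0.03 in resistant strains.

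**Figure D5:**
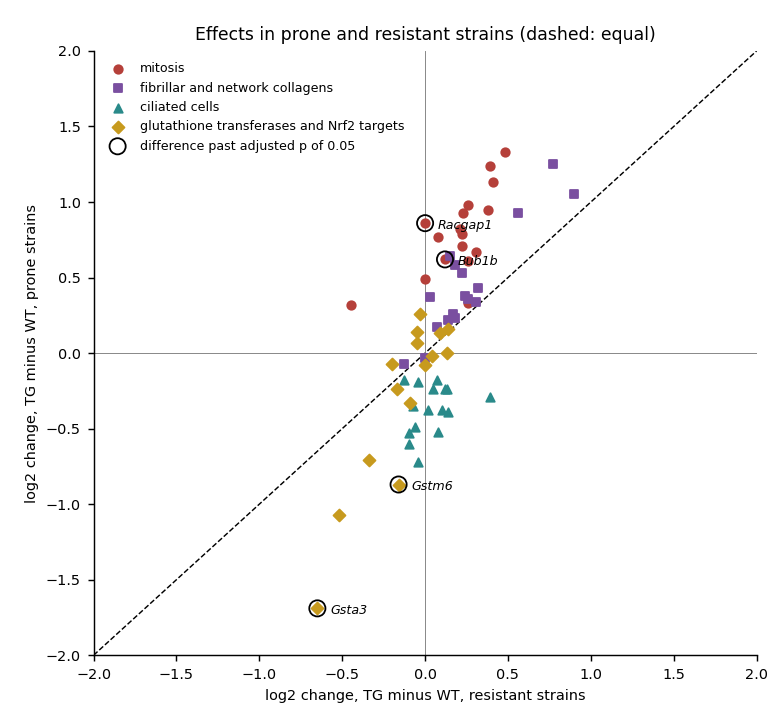
Log2 change, TG minus WT, in the prone strains (vertical axis) against the resistant strains (horizontal axis) in the fit of 24 arrays, for genes of 4 lists, with circles round genes whose difference passed an adjusted p of 0.05. Circled are Racgap1, Bub1b, Gstm6 and Gsta3, and points off the dashed line differ between the sets in this estimate.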

How the data were processed

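The authors deposited 1 table of log2 intensities for 24 arrays, and array medians of 7.759 to 7.835 show that the arrays were already scaled. As read here, the table held 25285 probe sets with values from 3.41 to 14.75. Among them, 1 probe set was incomplete, with 2 values, and was left out. The log2 base was read from the values, and the sources used here do not state the normalisation or software. Of the probe sets, 14539 carried 1 gene symbol, 781 several and 9964 none in the annotation used, and 14480 matched RefSeq; 590 of the 13499 genes had several probe sets and the one of highest mean over the 24 arrays was used. Genes outside the table as read, most of those on chromosomes 5 to 9 and X among them, were not analysed here. Whether the table as deposited holds them was not tested.

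The main test was limma 3.58.1 (R 4.3.3) with strain as a fixed effect on 12 arrays (8 residual degrees of freedom). Its p-values were adjusted over all genes by Benjamini-Hochberg. C57BL6/J, with 2 TG and 2 WT samples, weighs more in this fit than A/J or AKR/J, so its estimate is not the plain mean of the strains. Effects within a strain came from 6 group means and the difference between prone and resistant strains from 12 group means over 24 arrays. Python 3.11.15 was used for tables (pandas 2.3.3) and for figures (matplotlib 3.10.9). On simulated data the main test recovered 84% of changes of 0.5 and 99% of changes of 1 on the log2 scale, of 100 genes each among 13499. The difference between strain sets recovered 60% and 97%, C57BL6/J alone 50% and 94%, and strain dependence 7% and 77%. For strain dependence and C57BL6/J alone the change was added to C57BL6/J TG samples only. Recovery of a change confined to A/J or AKR/J was not simulated. A gene that missed these tests may still differ.

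Named genes were the 15 largest changes each way past the threshold with TG beyond WT in each strain, the 8 lowest p-values for strain dependence, the 6 largest differences each way between strain sets, the 3 largest changes each way per strain alone, and list members of largest change or of opposite direction. Members and lists were chosen with earlier results of these data known. Nothing in the labels says that replicate numbers pair samples. The check was possible in C57BL6/J alone, where deviations of same-numbered samples correlated at 0.058, and no pairing was used. The number of arrays limits the precision.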

Additional observations from a re-analysis of the deposited data

Results flagged for a closer look

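Several named genes had transgene effects that differed between strains by a limma test of the difference itself. Among A/J, AKR/J and C57BL6/J the effects of Pkhd1 (F-test adjusted p = 0.028), Tgm1 (0.034), 1810010H24Rik (0.044) and Pigr (0.045) differed. Pkhd1 rose by 1.76, 0.75 and 2.55 and Tgm1 by 1.84, 0.84 and 1.60 in A/J, AKR/J and C57BL6/J. Between prone and resistant strains the effects of Nrcam (difference 0.83) and Itgb6 (0.63) lay above 0. Those of Lrat (-1.39), 1810010H24Rik (-1.09), Gsta3 (-1.03) and Cyp4b1 (-0.79) lay below 0. Lrat missed the threshold in 15, Nrcam in 14 and Gsta3 in 8 of 25 alternatives. The differences of Itgb6 and Cyp4b1 were not followed under the alternatives. The sign of these differences would turn if the fibrosis field of the labels were followed instead of the series design.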

How the results depend on the processing

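Of the 2294 genes called between TG and WT, 0 changed sign in any alternative. With no strain term 981 genes passed (477 higher, 504 lower), without A/J 1410 (757 and 653), without C57BL6/J 613 (348 and 265), at an adjusted p under 0.01 1180 (623 and 557), and with at least 1.5-fold 531 (291 and 240). The replicate block beside strain gave 2089, the fit of 24 arrays 3172 and quantile normalisation 2389. Array weights gave 285 strain-dependent genes, 289 differing between strain sets and 276 in AKR/J alone. Strain dependence passed in 121 genes with a robust prior and 162 with 24 arrays, where AKR/J alone gave 285. Leaving out single samples gave 1270 to 2586 genes in all, 693 to 1225 higher and 577 to 1361 lower. It gave 1136 to 1921 in A/J alone, 80 to 282 in AKR/J alone and 564 to 1833 in C57BL6/J alone. Strain dependence ranged from 18 to 280 and the difference between strain sets from 8 to 194. Where a strain's only WT sample is left out, its own effect could not be fitted. The ranges for strain dependence and for the difference between strain sets therefore leave out no such sample. Of 253 genes followed, 82 held under every alternative.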
